A study of Mus musculus with 6 samples.

Results

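The neuronal cytoskeleton and axon growth genes were followed in the primary somatosensory cortex of mouse pups that lost, by design, the transcription factor Lhx2 from young cortical excitatory neurons. The group holds 45 genes listed by function: microtubule-associated proteins, tubulins, stathmins, collapsin response mediators, growth cone membrane proteins, the SoxC transcription factors, neurofilaments, actin regulators, regulators of dynein, kinesin-1 motors and adhesion molecules. Each was taken as the array's non-control probes that carry its name. All 45 were measured, out of 32701 genes tested, and 44 of the 45 were well above background on all 6 arrays. The exception was Kif5c, whose spot on the first control array carried the scanner software's outlier flag and was left out.

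In one group were Lhx2 cKO samples (Lhx2f/f;Nex-Cre, 3 samples), with floxed Lhx2 alleles and a Cre recombinase driven from the Nex (Neurod6) gene, which is active in postmitotic excitatory neurons of the cortex and not in glia or most interneurons. In the other were control samples (Lhx2f/f, 3 samples, titled WT in the labels), which carry the same floxed alleles without Cre. All samples were S1 tissue of C57BL/6 mice at postnatal day 7, and 1 single-colour array was run for each. Separate animals, pools or repeat extracts are not told apart in the labels, and the p-values thus cover only the spread among the 3 samples of each group, which may be technical in part.

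Axons and dendrites are built on microtubules, polymers of alpha- and beta-tubulin, and on actin filaments beneath the membrane. A growing neuron uses proteins that remodel or stabilise microtubules (stathmins, MAP1B, doublecortin), proteins that bring membrane and actin together at the growth cone (GAP43, BASP1, the MARCKS proteins), and tubulin isotypes abundant before birth (TUBA1A, TUBB2B, TUBB3). As axons reach their targets in the first weeks after birth, these give way to MAP1A, to other tubulin isotypes and to neurofilaments, which set axon calibre. The members were therefore sorted into 21 immature forms, 7 mature forms (Map1a, Tubb2a, Tuba4a, Nefl, Nefm, Nefh and Kif5a) and 17 that were assigned to neither. The genes, this sorting and the ratio pairs below were chosen with earlier results of these data known.

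No member passed the test. Levels are log2 processed signals relative to each array's 75th percentile, differences are arrays labelled cKO minus control, and the call was an adjusted p below 0.05 in limma over all genes tested. By that rule 0 of the 45 members were called, beside 0.00612% of all genes (2 genes, both higher in the arrays labelled cKO). The lowest adjusted p of a member was 0.243, that of Nde1. At an unadjusted p below 0.05, 9 members were higher and 3 lower, where 3.19% of all genes were higher and 4.34% lower. Most members nonetheless had the same sign: 35 of 45 differences were above 0, with a median of 0.16, while 55.9% of all genes were above 0, with a median of 0.02. In 16 members every array labelled cKO lay above every control array, and in 2 members, Tuba1c and Nde1, every one lay below; over all genes these shares were 7.17% and 6.22%. The differences were small, since the 95% interval of 43 members lay within a 2-fold change either way, as it did for 93.9% of all genes. Nefm and Nefh were the exceptions.

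**Figure D1:**
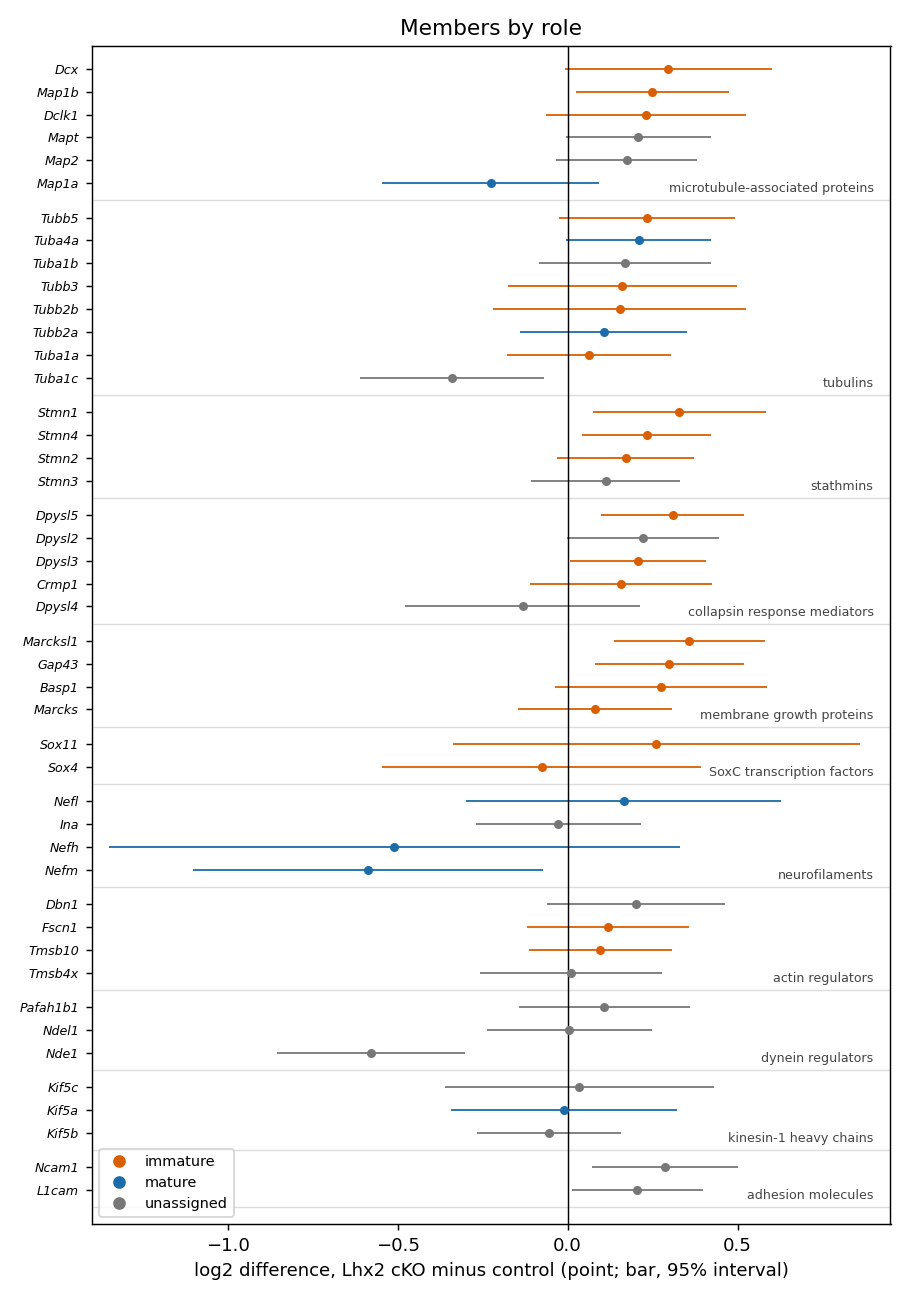
Log2 difference between arrays labelled Lhx2 cKO and control arrays for each of the 45 members, grouped by role (point, limma estimate; bar, 95% interval; 3 arrays per group except Kif5c, with 2 control arrays). Orange points are immature forms, blue mature forms and grey unassigned; 20 of the 21 orange points lie right of 0, and the lowest points are Nefm, Nde1 and Nefh.

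The samples themselves set limits. The Lhx2 probe (chr2, mm9) read 4.43, 4.55 and 4.77 on arrays labelled cKO, against 3.49, 3.50 and 3.44 on control arrays. It was thus higher where the labels say the gene was removed, by 1.1 on the log2 scale (SE 0.11, limma adjusted p = 0.0735), and the labels do not say which exons are floxed, so whether the probe lies in the deleted part is unknown here. Every direction below therefore refers to the arrays as labelled. All arrays came from 1 slide and 1 scan. The arrays labelled cKO sat in slide rows 4, 1 and 2 and the control arrays in rows 1, 2 and 3, so values are also given within row 1 (cKO 2 minus control 1) and within row 2 (cKO 3 minus control 2). All control arrays and cKO 1 sat in slide column 1, while cKO 2 and cKO 3 sat in column 2. Within a row, group and slide column therefore cannot be told apart. Within row 1 the median of all members was 0.22, with 36 above 0 and Kif5c without a value. Within row 2 it was 0.11, with 28 of 45 above 0. Of all 32701 genes, 17618 were above 0 within row 1 and 17942 within row 2. Signal from Y-linked genes was present on control arrays 1 and 3 only, and on no array labelled cKO, so it is partly confounded with group. Against control 2 alone, the X-linked members Dcx, L1cam and Tmsb4x differed by 0.31, 0.18 and -0.01. Control array 3 also differed from the other control arrays in several members, as described with each. The neuronal markers Snap25, Syt1, Syn1, Slc17a7 and Rbfox3 were well above background on all 6 arrays. Their differences were -0.12, 0.02, 0.01, 0.18 and -0.33, in that order. Only Snap25 was without overlap, and none was called.

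The promoter letters of a few members with described differences, of either sign, are shown for reference: the early and late pairs Map1b with Map1a and Tuba1a with Tuba4a, Dcx, whose listed promoter is the only one among the members to hold TAATTA, and Marcksl1, the member with the largest positive difference. Promoters of 29 of the 45 members were matched in RefSeq (GRCm38.p6), and the 250 bases upstream of the start are printed 5′ to 3′ on the gene's strand. Capitals mark every match, on either strand, to CANNTG (the E-box), TAATTA (a core bound by many homeodomain proteins, LIM-homeodomain proteins among them), ACAAAG (a core bound by Sox proteins) or TATAAA (the TATA box); no matches overlapped one another in these 6.
Map1b, chr13:99516603-99516852, minus strand: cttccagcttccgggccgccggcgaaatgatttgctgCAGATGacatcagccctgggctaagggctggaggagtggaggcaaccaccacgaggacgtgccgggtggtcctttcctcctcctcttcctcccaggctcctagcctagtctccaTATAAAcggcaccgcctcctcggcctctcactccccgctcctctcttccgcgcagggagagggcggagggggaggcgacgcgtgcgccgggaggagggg
Map1a, chr2:121289352-121289601, plus strand: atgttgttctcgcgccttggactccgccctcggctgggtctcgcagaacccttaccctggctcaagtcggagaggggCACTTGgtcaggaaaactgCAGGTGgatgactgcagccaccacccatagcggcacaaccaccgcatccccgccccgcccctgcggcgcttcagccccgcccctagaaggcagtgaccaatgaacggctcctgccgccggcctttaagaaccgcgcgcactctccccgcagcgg
Tuba1a, chr15:98953502-98953751, minus strand: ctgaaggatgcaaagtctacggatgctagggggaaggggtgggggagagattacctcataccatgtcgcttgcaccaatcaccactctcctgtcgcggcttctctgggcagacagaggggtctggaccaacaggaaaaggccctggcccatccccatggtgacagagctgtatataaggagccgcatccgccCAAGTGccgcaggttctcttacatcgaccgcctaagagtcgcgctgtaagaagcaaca
Tuba4a, chr1:75219295-75219544, minus strand: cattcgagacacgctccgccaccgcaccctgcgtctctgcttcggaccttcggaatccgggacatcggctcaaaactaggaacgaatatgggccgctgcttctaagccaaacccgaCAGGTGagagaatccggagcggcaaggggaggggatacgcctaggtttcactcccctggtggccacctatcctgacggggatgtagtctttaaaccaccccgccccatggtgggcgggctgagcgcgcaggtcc
Dcx, chrX:143933220-143933469, minus strand: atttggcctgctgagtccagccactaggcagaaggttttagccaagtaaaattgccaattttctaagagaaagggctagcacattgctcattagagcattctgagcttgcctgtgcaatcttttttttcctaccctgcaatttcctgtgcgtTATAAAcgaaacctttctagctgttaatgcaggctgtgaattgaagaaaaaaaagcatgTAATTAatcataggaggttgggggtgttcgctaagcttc
Marcksl1, chr4:129513331-129513580, plus strand: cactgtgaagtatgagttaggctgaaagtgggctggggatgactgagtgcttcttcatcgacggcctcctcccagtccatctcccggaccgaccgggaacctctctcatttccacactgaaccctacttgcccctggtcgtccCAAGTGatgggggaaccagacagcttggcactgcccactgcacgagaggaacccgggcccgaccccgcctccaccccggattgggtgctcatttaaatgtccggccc
The E-box letters stood in 8 of the 14 matched immature-form promoters and in 3 of the 3 mature-form ones, against 66.0% of 27025 promoters of the same length. TAATTA stood in 1 of 14 and in 0 of 3, against 4.90%, ACAAAG in 3 of 14 and in 0 of 3, against 16.5%, and TATAAA in 3 of 14 and in 1 of 3, against 13.0%. The members' promoters had a median GC content of 62.8%, against 52.0% over all promoters. These are matches of letters in a short window and say nothing of binding.

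Among the 21 immature forms, 20 had a difference above 0, and their median difference was 0.23, against a median of 0.02 over all genes. None was called (lowest limma adjusted p 0.352). In 10 of them the arrays labelled cKO lay wholly above the control arrays: Dclk1, Map1b, Tubb5, Stmn1, Stmn2, Stmn4, Dpysl3, Dpysl5, Marcksl1 and Gap43. Over all genes this share was 7.17%, and 13.9% of genes at levels from 2 to 4, the class in which it was highest. The immature-form median was 0.28 within slide row 1, where all 21 were above 0, and 0.24 within row 2, where 19 were. Set against control array 2 alone, the control array without Y-linked signal, it was 0.26. Relative to the control mean, the median of the immature forms was 0.18, 0.30 and 0.18 on the arrays labelled cKO, against -0.03, -0.02 and 0.06 on the control arrays, so the 2 groups of arrays did not overlap.

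The 7 mature forms had a median difference of -0.01, with 3 above 0 (Tuba4a, Nefl and Tubb2a) and 4 below, and none was called (lowest limma adjusted p 0.573). The difference between the stages was not tested. Relative to the control mean, their median was -0.05, 0.03 and -0.12 on arrays labelled cKO, against 0.11, 0.16 and -0.28 on control arrays. Control array 3 was the lowest of the 6. The sign of the mature median was not stable: it ran from -0.15 without control 3 to 0.07 without control 2, and was -0.08 within row 1 and -0.29 within row 2. The immature median minus the mature median was 0.24, and between 0.10 and 0.39 when any 1 array was left out, lowest without control 2 and highest without control 3. The stages also differed in level: Map1a, Nefm and Nefh had levels below 2, where no immature form lay. The brighter mature forms differed by 0.21 (Tuba4a), 0.17 (Nefl), 0.11 (Tubb2a) and -0.01 (Kif5a). The part of signal level in the contrast of stages was not tested. The 17 unassigned members had a median of 0.11, at 0.13 within row 1 and -0.04 within row 2, where 8 were above 0.

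Markers of other cell types were also compared between the groups. Astrocyte markers were lower in the arrays labelled cKO in 15 of 15 genes, with a median of -0.46. At an unadjusted limma p below 0.05, 14 of them were lower, beside 4.34% of all genes. The summed level of the astrocyte markers was 117 to 139 times the array's 75th percentile on arrays labelled cKO, against 166 to 194 times on control arrays. Oligodendrocyte lineage markers were lower in 13 of 15, with a median of -0.29 and a summed level of 129 to 149 against 158 to 194. Microglia markers were lower in 15 of 15, with a median of -0.57, but their summed levels overlapped, at 226 to 251 on arrays labelled cKO and 245 to 289 on control arrays. Interneuron markers were lower in 13 of 15 (median -0.31, summed level 60.7 to 73.4 against 78.7 to 79.4). Progenitor and cycling cell markers were lower in 12 of the 14 tested (median -0.34, summed level 16.0 to 18.9 against 17.7 to 23.0). Within slide row 2, however, the progenitor median was 0.02, with 8 of the 14 above 0, and control 3 was the highest array. Endothelial and mural markers were lower in 11 of 15, with a median of -0.18 and a summed level of 28.0 to 32.7 against 30.3 to 37.4. At the same unadjusted p, 8 oligodendrocyte lineage, 11 microglia, 3 interneuron, 3 endothelial and mural and 1 progenitor marker were lower. None of these genes was called, and all markers were well above background on all 6 arrays except 2 of the 15 progenitor markers. The immature forms summed to 2583 to 2802 on arrays labelled cKO, against 2238 to 2466 on control arrays. In bulk tissue, fewer cells of a type and less RNA per cell cannot be told apart, and the part of these markers in the members' shift was not tested.

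**Figure D2:**
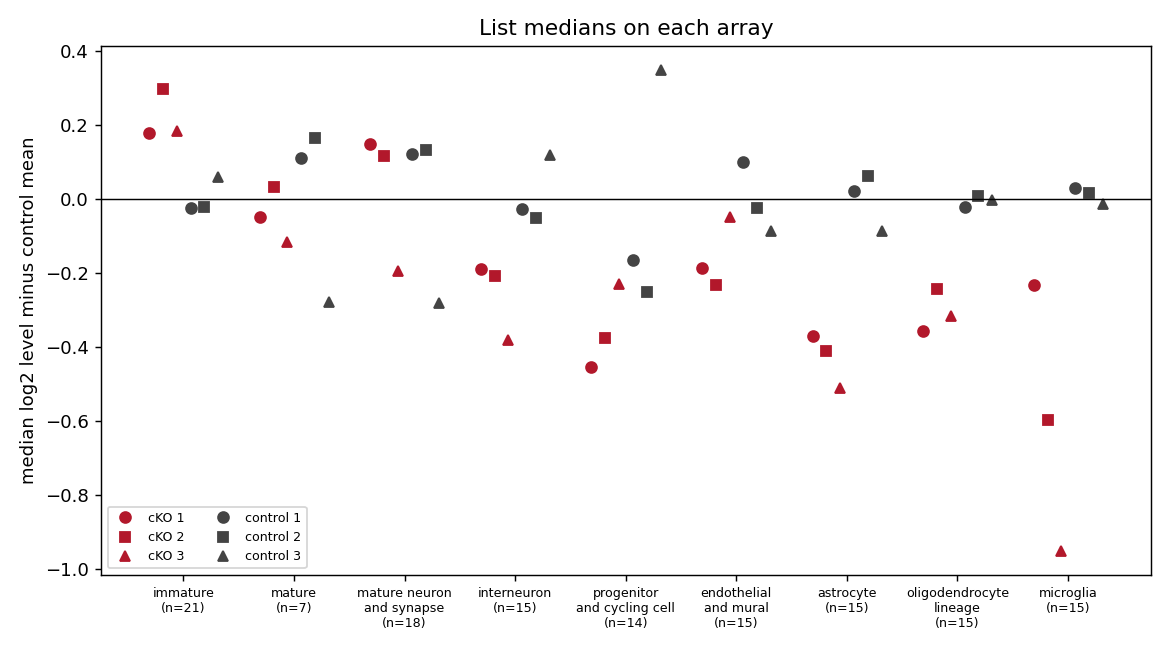
Median log2 level of each gene list on each array relative to the mean of the 3 control arrays (red, arrays labelled cKO; grey, control; circle, square and triangle, replicates 1, 2 and 3). The immature forms sit between 0.18 and 0.30 on the red arrays, above all grey points. The astrocyte, oligodendrocyte, microglia and interneuron medians on the red arrays lie below all grey points of their list. For mature forms and for mature neuron and synapse genes, control 3 is the lowest point.

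Among the microtubule-associated proteins, Map1b, which binds microtubules in growing axons, read 3.46, 3.57 and 3.42 on arrays labelled cKO, against 3.20, 3.17 and 3.33 on control arrays. The groups did not overlap and the difference was 0.25 (SE 0.09, limma adjusted p = 0.59). A second Map1b probe gave 0.19. Its mature counterpart Map1a read 1.71, 1.74 and 1.60 on arrays labelled cKO, against 2.01, 2.07 and 1.64 on control arrays, so control 3 lay among the arrays labelled cKO. The Map1a difference was -0.23 (SE 0.13, limma adjusted p = 0.84), and -0.20 at its other probe. Doublecortin, which stabilises microtubules in migrating and extending neurons, read 4.56, 4.78 and 4.94 for Dcx on arrays labelled cKO, against 4.36, 4.45 and 4.59 on control arrays. The groups overlapped by a single pair of arrays, with a difference of 0.30 (limma adjusted p = 0.675). Its other probes, both dimmer, gave 0.14 and 0.06, and the mean of the 3 probes 0.17. The related kinase gene Dclk1 differed by 0.23 without overlap, but one of its 4 probes, a dim one, had the opposite sign at -0.16. Mapt and Map2, which encode the axonal protein tau and the dendritic MAP2, differed by 0.21 and 0.17, also without overlap. Mapt read 7.55, 7.65 and 7.64 on arrays labelled cKO, against 7.35, 7.36 and 7.50 on control arrays.

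The tubulins had 7 of 8 differences above 0, with a median of 0.16. Tubb5, a beta-tubulin abundant in developing neurons, read 8.07, 8.19 and 8.05 on arrays labelled cKO, against 7.85, 7.74 and 8.03 on control arrays, a difference of 0.23 (limma adjusted p = 0.726). The lowest array labelled cKO and control 3 were only just apart. The neuronal isotypes Tubb3 and Tubb2b overlapped between the groups: Tubb2b read 7.68, 8.01 and 7.78 on arrays labelled cKO, against 7.59, 7.47 and 7.95 on control arrays. In both genes control 3 was 0.42 above the mean of the other control arrays. Tuba1a, the main alpha-tubulin of embryonic neurons, differed by 0.06 (95% interval -0.18 to 0.30), and the mature forms Tubb2a and Tuba4a by 0.11 and 0.21. For Tuba4a the arrays labelled cKO, at 7.35, 7.48 and 7.33, lay above the control arrays, at 7.20, 7.22 and 7.11, so in this pair the late isotype had the larger difference.

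Tuba1c ran the other way. It read 1.47, 1.21 and 1.43 on arrays labelled cKO, against 1.67, 1.62 and 1.84 on control arrays, without overlap and with a difference of -0.34 (SE 0.11, limma adjusted p = 0.509). A second probe that overlaps the first in sequence gave -0.37. Tubulin genes are near copies of one another, and 4 of the tubulin probes (one of Tuba1a, both of Tuba1b, one of Tuba1c) are listed by the array's mm9 annotation on a chromosome other than the gene's. Signal at these probes may come from more than one copy.

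Stathmins bind free tubulin and favour microtubule disassembly, and all 4 had differences above 0. Stmn1 read 8.32, 8.23 and 8.23 on arrays labelled cKO, against 7.98, 7.76 and 8.06 on control arrays, a difference of 0.33 (SE 0.11, limma adjusted p = 0.493). With a term for Y-linked signal, which leaves control 2 as the only control array compared, it was 0.50. Stmn4 read 7.52, 7.57 and 7.56 on arrays labelled cKO, against 7.31, 7.33 and 7.30 on control arrays, a difference of 0.23 (SE 0.08, limma adjusted p = 0.53). Both were without overlap, and the Stmn4 arrays lay close together, with an SD of 0.03 on arrays labelled cKO and 0.01 on control arrays. Stmn2, found in growth cones, differed by 0.17 without overlap, and Stmn3 by 0.11 with overlap. The Stmn1 probe shares a run of at least 25 bases with a probe of Gm11223, so part of its signal may belong to that gene; the second Stmn1 probe gave 0.32, but it is listed on mm9 at chr4:69586568-69586627, minus strand, away from the first at chr4:134029695-134029754, plus strand.

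The collapsin response mediators (Crmp1 and the Dpysl genes) carry semaphorin signals to the cytoskeleton, and 4 of the 5 had differences above 0. Dpysl5 read 4.12, 4.26 and 4.18 on arrays labelled cKO, against 3.87, 3.82 and 3.93 on control arrays. The gap between the groups was wider than the spread within either, with a difference of 0.31 (SE 0.09, limma adjusted p = 0.408). A dimmer second probe gave 0.10, and the mean of both 0.20. Dpysl3 and Dpysl2 differed by 0.21 and 0.22, each without overlap, and Crmp1 by 0.16 with overlap. Dpysl4 was the exception at -0.13 (95% interval -0.48 to 0.21), with control 3 at 4.67 below the other control arrays, at 5.01 and 5.04.

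The growth cone membrane proteins held the member with the largest positive difference. Marcksl1, whose product tethers actin to the membrane and is released by protein kinase C, read 5.86, 6.05 and 5.90 on arrays labelled cKO, against 5.63, 5.59 and 5.52 on control arrays. The groups did not overlap, at 1.28-fold (log2 difference 0.36, SE 0.09, limma adjusted p = 0.352). Gap43, the classical growth cone protein, read 7.34, 7.35 and 7.26 on arrays labelled cKO, against 7.11, 7.03 and 6.92 on control arrays, at 1.23-fold (log2 difference 0.30, SE 0.09, limma adjusted p = 0.458). Basp1 differed by 0.27 with overlap and Marcks by 0.08, so members of one family had unlike differences, although that contrast was not tested. The adhesion molecules followed the same sign: Ncam1 read 6.26, 6.42 and 6.44 on arrays labelled cKO, against 6.08, 6.12 and 6.06 on control arrays, a difference of 0.29 (SE 0.09, limma adjusted p = 0.479). One of the 3 Ncam1 probes had the opposite sign, at -0.26, and the mean of the 3 was 0.10. L1cam, an axonal adhesion protein, read 0.83, 0.76 and 0.75 on arrays labelled cKO, against 0.56, 0.60 and 0.57 on control arrays, a difference of 0.21 without overlap.

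**Figure D3:**
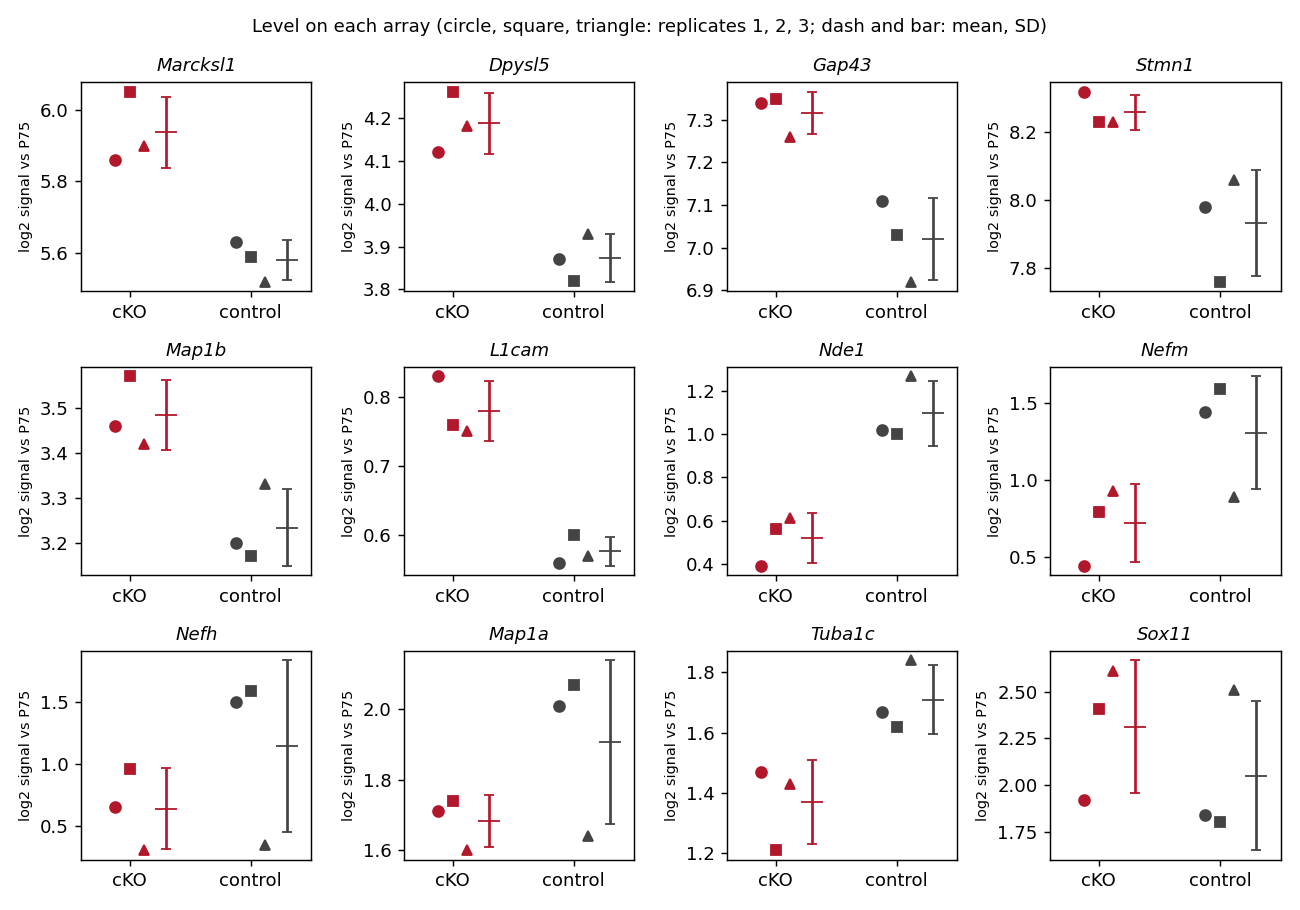
Log2 level relative to the array's 75th percentile on each array for 12 members (red, arrays labelled cKO; grey, control; dash and bar, mean and SD of 3 arrays; each panel has its own vertical axis, which does not start at 0). Marcksl1, Dpysl5, Gap43, Stmn1, Map1b and L1cam do not overlap and are higher in the arrays labelled cKO, Nde1 and Tuba1c do not overlap and are lower, and control 3 (triangle) lies among the arrays labelled cKO for Nefm, Nefh, Map1a and Sox11.

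The neurofilament genes, which mark axon maturation, were the most uneven. Nefm, the middle subunit, read 0.44, 0.79 and 0.93 on arrays labelled cKO, against 1.44, 1.59 and 0.89 on control arrays, a difference of -0.59 (SE 0.22, limma adjusted p = 0.573). Nefh, the heavy subunit and the last to appear, read 0.65, 0.96 and 0.30 on arrays labelled cKO, against 1.5, 1.59 and 0.34 on control arrays, a difference of -0.51 (SE 0.35, limma adjusted p = 0.904). In both genes 2 control arrays lay above all arrays labelled cKO, and control 3 lay among them. Nefl, the light subunit, had the other sign at 0.17 (95% interval -0.30 to 0.63), and Ina, which encodes alpha-internexin, the earliest of these subunits, was at -0.03. The spread of Nefh among control arrays (SD 0.70) was above that of 98.6% of all genes, and that of Nefm (SD 0.37) above 90.4%. Control 3 was 1.20 below the mean of the other control arrays in Nefh by the log2 level, a gap larger than the difference between the groups.

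The SoxC factors Sox11 and Sox4, which drive early neuronal genes including Tubb3 and Dcx, varied in the opposite sense on control 3. Sox11 read 1.92, 2.41 and 2.61 on arrays labelled cKO, against 1.84, 1.80 and 2.51 on control arrays, a difference of 0.26 (95% interval -0.34 to 0.86). Sox4 read 2.47, 2.78 and 2.98 on arrays labelled cKO, against 2.65, 2.63 and 3.18 on control arrays, a difference of -0.08. On control 3 Sox11 was 0.70 and Sox4 0.54 above the mean of the other control arrays, and without that array the Sox4 difference was 0.10. Sox4 was the only immature form with a difference below 0 over all 6 arrays.

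Among the regulators of dynein, Nde1 had the lowest p of all members. NDE1 and its relative NDEL1 bring LIS1, the product of Pafah1b1, to dynein, and Nde1 is known for its role in dividing cortical progenitors. Nde1 read 0.39, 0.56 and 0.61 on arrays labelled cKO, against 1.02, 1.0 and 1.27 on control arrays, and so was 1.49-fold higher in control (log2 difference -0.58, SE 0.12, limma adjusted p = 0.243). The groups did not overlap. Its other probes were dimmer and gave -0.13 and -0.14, and the mean of the 3 was -0.28. At the probe used, Nde1 was at -0.47 within row 1, -0.39 within row 2 and -0.48 against control 2 alone. The progenitor and cycling cell markers were lower as well over all arrays (median -0.34), but at -0.10 within row 1 and 0.02 within row 2. Relative to the control mean, their median was 0.35 on control 3, against -0.16 and -0.25 on controls 1 and 2. The part of these markers in the Nde1 value was not tested. Ndel1 and Pafah1b1, which remain in use in neurons, differed by 0.01 and 0.11.

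The remaining members differed little. The kinesin-1 heavy chains Kif5a, Kif5b and Kif5c, which carry cargo along axons, were at -0.01, -0.05 and 0.03; the Kif5c fit used 2 control arrays, and the Kif5b probe is listed on chromosome 2 while the gene is on chromosome 18. Of the actin regulators, Dbn1, which encodes the spine and growth cone protein drebrin, read 3.60, 3.62 and 3.80 on arrays labelled cKO, against 3.38, 3.41 and 3.62 on control arrays. That is a difference of 0.20 with overlap at control 3. Fscn1, which bundles filopodial actin, differed by 0.12, and the thymosins Tmsb10 and Tmsb4x, which sequester actin monomers, by 0.10 and 0.01; the Tmsb10 probe is listed on chromosome 7 while the gene is on chromosome 6, and a probe on chromosome 6 gave 0.08.

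Early over late ratios within each array do not change when an array is shifted as a whole, and 5 pairs were compared. Quantile normalization can change them. Ina and Dpysl2, used in these pairs, had been assigned to neither form, so early and late are relative there. The log2 ratio of Map1b to Map1a was 1.75, 1.84 and 1.82 on arrays labelled cKO, against 1.19, 1.09 and 1.69 on control arrays. It did not overlap and averaged 1.80 ± 0.05 on arrays labelled cKO and 1.32 ± 0.32 on control arrays (SD, n = 3 each, difference 0.48, two-sided exact permutation p = 0.1, adjusted over the 5 pairs 0.25). This p is the smallest that 3 against 3 arrays can give, so no pair could pass. The ratio of Tuba1a to Tuba4a also did not overlap but went the other way, at 1.40, 1.55 and 1.57 on arrays labelled cKO, against 1.60, 1.59 and 1.77 on control arrays (difference -0.15, exact permutation p = 0.1, adjusted 0.25). Within rows it was -0.06 and -0.02, while Map1b over Map1a was 0.64 and 0.72.

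The other pairs overlapped. Ina over Nefh differed by 0.48 (exact permutation p = 0.4), at 3.52, 3.11 and 3.59 on arrays labelled cKO, against 2.56, 2.46 and 3.75 on control arrays. Control 3 was again the array apart, and without it the difference was 0.90. Tubb2b over Tubb2a differed by 0.05 (exact permutation p = 0.9) and by 0.25 without control 3. Dpysl3 over Dpysl2 differed by -0.01 (exact permutation p = 0.7). The pairs did not share a direction.

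**Figure D4:**
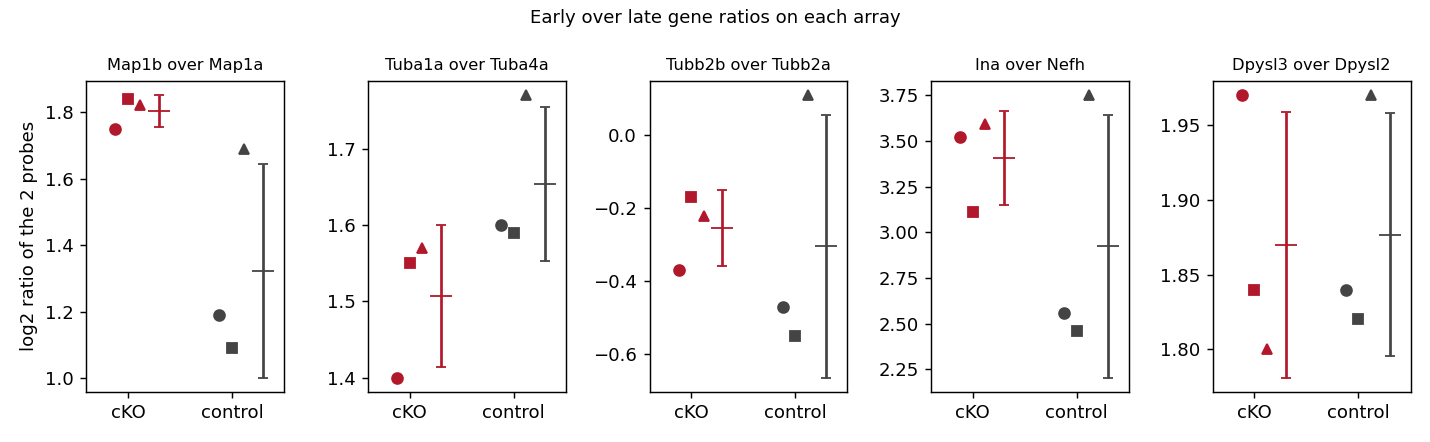
Log2 ratio of an early to a late gene on each array for the 5 pairs (red, arrays labelled cKO; grey, control; dash and bar, mean and SD of 3 arrays; each panel has its own vertical axis, which does not start at 0). Map1b over Map1a lies at 1.75 to 1.84 on arrays labelled cKO and 1.09 to 1.69 on control arrays, and control 3 (triangle) has the highest control ratio in every panel. Ina and Dpysl2 were assigned to neither form.

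Brightness was compared next. Over all genes the median difference was between 0.01 and 0.04 in each of 4 classes of level. The 19 members in the brightest class had a median of 0.17, the 12 in the next class 0.17, and the 7 from 2 to 4 on the log2 scale 0.20. The 7 dimmest members, with levels below 2, had a median of -0.34. Those 7 hold Nde1, Nefm, Nefh, Tuba1c, Map1a, Kif5b and L1cam, and no immature form. Among the 24 members with several probes, all probes had the same sign in 21, the others being Dclk1, Ncam1 and Pafah1b1.

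Other cytoskeleton genes had medians between 0.01 and 0.08, and many were also above 0: 79.2% of dynein, dynactin and other kinesin genes, 73.3% of actin genes, 72.2% of tubulin folding and modification genes and 67.9% of other microtubule-associated proteins, beside 77.8% of the members. The share was 66.7% of spectrin, ankyrin and mature axon genes and 54.55% of other tubulins, beside 55.9% of all genes. No gene of these lists was called, and the genes named are those of each list with the smallest p. The 11 other tubulins had a median of 0.01, with Tubb4a, an isotype of myelinating cells and mature neurons, at 0.32 (4.69, 4.73 and 4.74 on arrays labelled cKO, against 4.39, 4.38 and 4.42 on control arrays). Tubb1 was at 0.19 without overlap and Tuba3a at -0.34 with overlap. The 18 tubulin folding and modification genes had a median of 0.08; the alpha-tubulin acetyltransferase Atat1 was at 0.37 and the deacetylase Sirt2, which is abundant in oligodendrocytes, at -0.43. The 28 other microtubule-associated and severing proteins had a median of 0.04. Dcdc2a, a doublecortin-domain gene, read -1.06, -1.22 and -1.24 on arrays labelled cKO, against 0.12, 0.23 and -0.28 on control arrays, a difference of -1.20 (limma adjusted p = 0.0859). That is opposite in sign to Dcx and Dclk1. Map4 and Map9, of the same list, were each at 0.25 without overlap.

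The 24 dynein, dynactin and other kinesin genes had a median of 0.07, with Kif2a, a microtubule depolymerase that limits axon branches, at 0.32. Among the 30 actin genes the median was 0.05. Cobl, an actin nucleator that promotes branching of neurites, read 2.44, 2.39 and 2.22 on arrays labelled cKO, against 1.48, 1.38 and 1.5 on control arrays, a difference of 0.90 (limma adjusted p = 0.0741). Gsn, which encodes the actin-severing protein gelsolin and is abundant in oligodendrocytes, was at -0.77, and Coro2b at -0.32, both without overlap. The 15 spectrin, ankyrin and mature axon genes had a median of 0.04. Nfasc was at -0.21 and Cntn1 at 0.26, both without overlap, and Cntnap1 at -0.22. The 18 mature neuron and synapse genes had a median of 0.02, with 10 above 0. They were at -0.03 within row 1, with 7 above 0, and at -0.34 within row 2, with 0 above 0. Their 3 genes with the smallest p were lower: Rbfox3 at -0.33, Grin2a at -0.41 and Snap25 at -0.12, the last without overlap. In this last list control 3 was low, at -0.28 relative to the control mean, and so was cKO 3, at -0.19.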

How the data were processed

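Expression was measured on 6 single-colour (Cy3) Agilent mouse arrays, 3 per group. Per the file headers, the deposited intensity of each spot is Feature Extraction 10.5.1.1's processed signal, after detrending and background subtraction, with a surrogate for spots not above background and no scaling between arrays. The authors' deposited series matrix holds log2 values whose making the sources used here do not state; against the scanner values it matched quantile-normalized values minus each probe's median, with 95% of values within 0.00859, column medians from -0.0064 to 0.00645 and its scale and centring inferred. It served as an alternative.

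Here, processed signals were put on the log2 scale and each array was shifted by its own 75th percentile (892 to 1067 intensity units). Control spots were dropped, as were 112 to 198 outlier spots an array, and repeat spots of a probe were averaged; 86.7% to 91.1% of spots were well above background and 0 saturated. A probe was tested if well above background on at least 3 arrays, and a gene took its tested probe with the highest mean. Groups were compared with limma 3.58.1 (R 4.3.3; lmFit and eBayes, two-sided, Benjamini-Hochberg over 32701 genes, threshold 0.05), and the script was tested on simulated data. The number of arrays limits the precision. Ratios were tested by exact permutation over the 20 splits of the arrays. Gene names came from the files, updated through a RefSeq table of GRCm38.p6 (28331 probes by accession, 428 by another accession, 2034 by symbol, 162 by synonym; 24726 kept the file's name); no genome was used.

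The members, stages, 13 context lists and pairs were chosen with earlier results of these data known. Named are all 45 members, up to 3 genes per context list with the smallest p, and Lhx2. Gm11223, Neurod6 and the neuronal marker genes used to check the tissue are also named. Same-numbered samples correlated at -0.201, 0.0832 and 0.172 in their deviations from the group means, so the numbers were not taken to pair the samples. Alternatives were other scalings, background corrections, filters, variance models, array weights, a replicate block, terms for slide row and Y-linked signal, the matrix, and each array left out.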

Additional observations from a re-analysis of the deposited data

How the results depend on the processing

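Over 20 alternatives the count of called members stayed 0 (lowest adjusted p 0.06, Nde1 under array weights), and 36 of the 45 members kept the sign of their difference in every one of them; of 899 values, 27 had the opposite sign. The immature-form median stayed between 0.17 and 0.26, and the median of all genes between -0.01 and 0.04. The count of genes called over all genes, 2 as reported, was 12 under quantile normalization, 12 with the matrix values, 24 under median centring, 77 and 73 under normexp correction with 75th percentile scaling and with quantile normalization, 11 with probes above background on all 6 arrays, 106 with an intensity trend and robust variances, 442 (166 higher, 276 lower) with array weights, 0 with no filter, 0 with the slide row term, 0 with the Y-linked term, 0 in the paired fit with the replicate block, and 0 to 4 with 1 array left out, 4 without control 3; the cause was not tested. The replicate block changed no other call; it moved Kif5c, which lacks control 1, to 0.14, and left the immature median at 0.23 and Map1b over Map1a at 0.48. The mature-form median was -0.18 with array weights and -0.18 with the Y-linked term, where immature minus mature was 0.44. Tuba1a over Tuba4a was -0.12 under quantile normalization, with the matrix values and with the mean of probes (exact permutation p = 0.2 in each). In these settings its groups overlapped.

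Signs turned as follows. The mature-form median was 0.00495 with the slide row term and -0.15 to 0.07 with 1 array left out. Dpysl3 over Dpysl2 was 0.00025 with the matrix values, 0.0469 with the mean of probes, 0.0426 with the Y-linked term and -0.065 to 0.0327 with 1 array left out; Tubb2b over Tubb2a was -0.0745 to 0.25 with 1 array left out. Ndel1 was -0.0234 under quantile normalization, -0.0232 with normexp and quantile normalization, -0.0288 with the matrix values, -0.0262 with array weights, -0.00498 with the Y-linked term and -0.0571 to 0.0631 with 1 array left out. With array weights Sox4 was 0.19 and Kif5c -0.0446. With the Y-linked term Sox4 was 0.12, Kif5c -0.12, Tmsb4x -0.0103 and Pafah1b1 -0.0022. Kif5a was 0.00495 with the slide row term. With 1 array left out, Sox4 ranged from -0.19 to 0.10, Tuba1a from -0.0049 to 0.13, Tmsb4x from -0.0593 to 0.10, Kif5c from -0.12 to 0.19, Ina from -0.0923 to 0.0508, Kif5a from -0.15 to 0.0739 and Nefl from -0.0217 to 0.27. Kif5c had no value under the filter on all 6 arrays. Of the 45 members, 44 were well above background on every array; the widest intervals were those of Nefh, Sox11 and Nefm.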
